A study of Homo sapiens with 14 samples.

Results

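The 40 genes described here encode the adhesion molecules, junction proteins and keratins of epithelial cells and the proteins and transcription factors that mark the change to a mesenchymal state. They were taken as a fixed list of symbols, matched through the GENCODE release 44 annotation to 40 of the 60683 gene identifiers that were counted in every library. The rule for the list uses no measured value, though it was drawn up with earlier results of these data known. By role they comprised 4 genes of surface adhesion, 10 of the tight junction, 6 of the desmosome, 6 keratins, 2 mesenchymal structural genes, 6 transition factors and 6 epithelial regulators or proteases. RNA sequencing was performed on 14 libraries of 2 human tumor cell lines, with 2 libraries in each of 7 groups. A549, a lung cancer line, was left untreated or received 2 µM palbociclib, 0.5 µM indisulam or both drugs at these doses for 10 days, or 0.5 µM PF-06873600 for 7 days. SUM159, a triple-negative breast cancer line, was left untreated or received 0.5 µM PF-06873600 for 7 days. Palbociclib inhibits the cell cycle kinases CDK4 and CDK6, PF-06873600 inhibits CDK2 as well, and indisulam is a molecular glue that leads to degradation of the splicing factor RBM39. The labels give neither a collection time nor a vehicle for untreated cells. The series describes its libraries as technical duplicates, so the p-values measure the spread between technical replicates and not between independent cultures. An exact permutation test of 2 against 2 libraries cannot go below p = 0.33, and the tests below are therefore those of a model fitted across all genes.

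Epithelial cells are held together by adherens junctions built on E-cadherin, by tight junctions of claudins and occludin that seal the space between cells, and by desmosomes that anchor keratin filaments. In an epithelial to mesenchymal transition, transcription factors of the SNAI, ZEB and TWIST families repress E-cadherin and other junction genes through E-box sequences, while N-cadherin, vimentin and fibronectin are produced. The change is often partial, with epithelial and mesenchymal products in the same cell, and established carcinoma lines differ widely in where they stand.

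To show the control regions of genes with large changes, the 250 bases before the annotated start were taken from RefSeq promoters on GRCh38.p14, which hold 21 of the 40 genes with 37 starts. CLDN1 was chosen because it was higher in every treated group of both lines, KRT8 because its direction differed between the lines, VIM as the mesenchymal filament gene, and TJP3, shown at the second of its 2 starts, as a junction gene that was lower in 3 treated A549 groups. Each sequence reads 5′ to 3′ on the strand of its gene and ends at the base before the start, and capitals mark matches on either strand to the E-box letters CACCTG or the GC-box letters GGGCGG.
CLDN1, chr3:190322447-190322696, minus strand: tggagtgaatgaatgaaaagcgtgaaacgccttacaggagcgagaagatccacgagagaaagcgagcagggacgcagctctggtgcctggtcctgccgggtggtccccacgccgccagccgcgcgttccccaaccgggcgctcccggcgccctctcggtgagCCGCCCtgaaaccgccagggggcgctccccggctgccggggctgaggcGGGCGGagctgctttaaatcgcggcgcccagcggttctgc
KRT8, chr12:52926470-52926719, minus strand: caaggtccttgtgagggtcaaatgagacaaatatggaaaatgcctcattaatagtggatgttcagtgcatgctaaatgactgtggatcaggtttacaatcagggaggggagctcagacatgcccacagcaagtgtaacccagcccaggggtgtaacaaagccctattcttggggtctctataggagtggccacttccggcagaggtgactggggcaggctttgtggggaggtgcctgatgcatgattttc
VIM, chr10:17227991-17228240, plus strand: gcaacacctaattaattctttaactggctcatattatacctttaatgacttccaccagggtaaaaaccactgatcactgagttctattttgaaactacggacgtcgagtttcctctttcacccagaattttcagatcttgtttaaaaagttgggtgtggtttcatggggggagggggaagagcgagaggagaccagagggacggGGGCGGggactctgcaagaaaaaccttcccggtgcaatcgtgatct
TJP3, chr19:3721487-3721736, plus strand: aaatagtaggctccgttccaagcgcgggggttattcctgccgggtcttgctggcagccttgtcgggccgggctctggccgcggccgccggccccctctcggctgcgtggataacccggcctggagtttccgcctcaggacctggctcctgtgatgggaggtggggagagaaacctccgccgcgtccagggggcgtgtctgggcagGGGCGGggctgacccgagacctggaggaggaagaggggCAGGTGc
The TJP3 window held CACCTG 7 bases before the start and GGGCGG 45 bases before it. CLDN1 held GGGCGG at 88 and at 40 bases before the start and VIM held it at 46 bases, while the KRT8 window held neither motif. The KRT8 start in this table lies inside the GENCODE gene, which extends to position 52949954, so that window is upstream of an internal start and not of the whole gene. The TJP3 start is likewise internal, while the CLDN1 and VIM windows end where the gene begins. Across the 37 starts of the 21 genes, CACCTG was found before 12 starts of 10 genes (32.4% of starts), against 17.5% of the 35116 promoters of this length. GGGCGG was found before 25 starts (67.6%), against 42.6% of all promoters. The AP-1 letters TGANTCA were found before 3 starts (8.11%), against 6.57%, and TATAAA before 2 starts (5.41%), against 10.7%. Windows of starts of the same gene can overlap, and matches describe letters and not sites that a factor was measured to bind.

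Counts on genes summed to between 13060374 and 21149256 per library, so 3 counts, taken as the floor of a library, corresponded to 0.142 to 0.230 counts per 1000000 counts on genes (CPM). Levels are given in CPM, levels of different genes only as CPM per kilobase of merged exons, and changes as log2 fold changes ± SE from edgeR's quasi-likelihood test with Benjamini-Hochberg adjusted p. Libraries of the same group differed by more than counting error. Chi-square divided by its degrees of freedom ran from 1.61 to 9.57, the largest in untreated A549. Of 5 epithelial markers, both lines carried the keratins KRT7, KRT8 and KRT18. The other markers were present in untreated A549, with CDH1 at 160.0 and 152 CPM and EPCAM at 18.3 and 20.6. In untreated SUM159 they were near the floor, with CDH1 at 0.181 and 0 CPM and EPCAM at 0.844 and 0.438. The lung markers NKX2-1 and SFTPC stayed at or below 0.451 CPM in every A549 library and SFTPB was at 0 there, while NAPSA was at 0.884 and 0.533 CPM untreated and 3.69 and 3.22 with the combination. Of the breast markers in SUM159, ESR1 did not exceed 0.662 CPM and PGR was at 0. ERBB2 there was at 122 and 118 CPM untreated and 127 and 130.2 with PF-06873600. GATA3 was at 6.27 and 5.89 CPM in untreated SUM159 and 6.84 and 6.05 with PF-06873600. TFF1 was at 0 in untreated SUM159 and at 5.44 and 5.47 CPM in untreated A549. Untreated A549 had more ERBB2 than SUM159, at 166 and 143 CPM, and less GATA3, at 0.340 and 0.267. In bulk RNA, a smaller share of cells expressing a gene and less RNA per cell cannot be told apart. PF-06873600 was given for 7 days and the other drugs for 10 days, and no test was made between them. Where their libraries or changes are ranked below, the order is a description in which drug and time cannot be told apart.

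In A549 the combination had the most calls against untreated cells and palbociclib alone the fewest, among these genes and among all genes tested. The filter on low counts left 36 of the 40 genes in A549 and 30 in SUM159. ESRP1, ESRP2, GRHL2 and OVOL1 passed in neither line, and CLDN4, TJP3, CGN, MARVELD2, DSC2 and KRT19 failed in SUM159 alone. With palbociclib, 9 of 36 genes were higher and 3 were lower, while over all 15780 genes tested 8.3% were higher and 7.4% were lower. With indisulam, 21 were higher and 5 lower, against 28% and 17.5% of all genes. TMM scaling moved that background to 22.9% higher and 22.5% lower and left 20 of these genes higher and 6 lower. With the combination, 22 were higher and 9 lower, against 35.1% and 30%. By at least 2-fold 18 were higher and 3 lower, against 16.6% and 9%. With PF-06873600 in A549, 17 were higher and 11 lower, against 28.5% and 27.8%. By at least 2-fold 11 were higher and 6 lower, against 10.7% and 7.04%. In SUM159, PF-06873600 raised 15 of 30 genes and lowered 11, against 38.1% and 35.6% of 15055 genes. By at least 2-fold 12 were higher and 3 lower, against 19.8% and 7.51%. The median log2 fold change of the tested genes was -0.02 with palbociclib, 0.40 with indisulam, 0.99 with the combination, 0.22 with PF-06873600 in A549 and 0.21 with it in SUM159. Over all genes tested these medians were -0.00564, 0.0797, 0.0516, -0.00821 and 0.0204. These counts are descriptions, since CDH3, SNAI1, SNAI2, ZEB2 and ST14 in A549 and CDH1, EPCAM, CLDN2, CLDN7, OCLN, ELF3 and ST14 in SUM159 did not reach 10 counts at the median library size in both untreated libraries and passed the filter through other libraries. The lower count with palbociclib became 7 when the second untreated A549 library was left out, and the lower count with indisulam became 2 without the first indisulam library. Summed over the 40 genes, levels were 11965 and 10725 CPM in untreated A549, 15135 and 14999 with palbociclib, 16402 and 16320 with indisulam, 20694 and 20136 with the combination and 20410 and 20712 with PF-06873600. In SUM159 the sums were 10965 and 11197 CPM without treatment and 19819 and 19948 with PF-06873600. Most of each sum came from a few abundant genes, KRT7, KRT8, KRT18, FN1, CLDN2 and VIM in A549 and VIM, FN1 and KRT7 in SUM159.

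**Figure D1:**
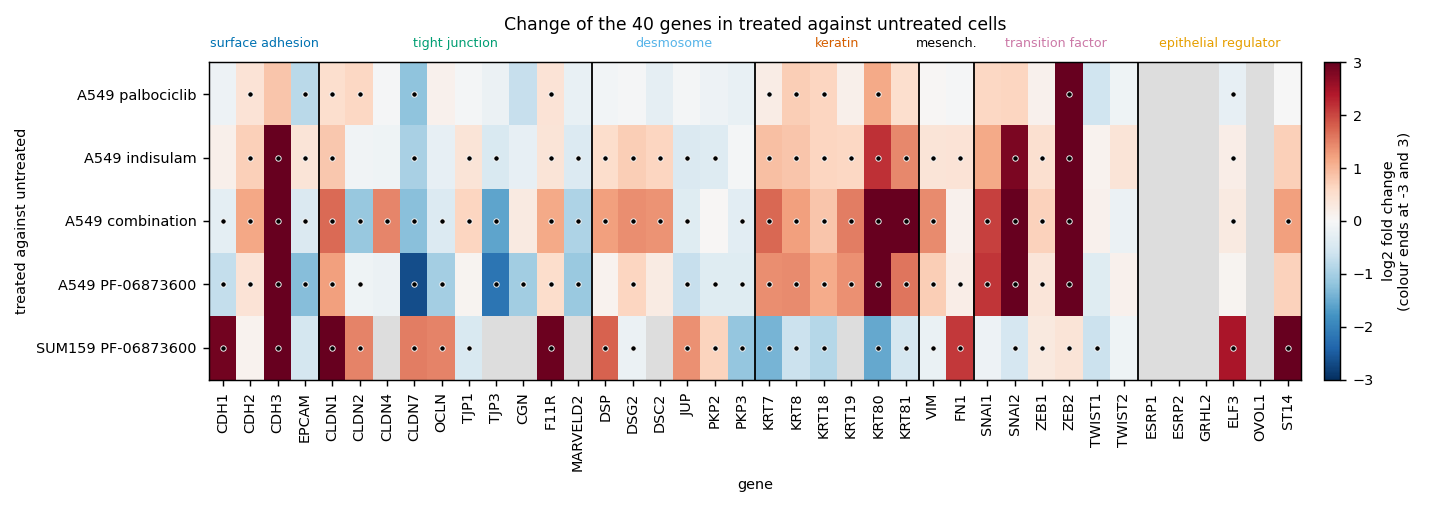
Log2 fold change of each of the 40 genes (columns, by role) in treated against untreated cells (rows), red higher and blue lower, with colors ending at -3 and 3. Dots mark genes past an adjusted p of 0.05, gray cells were not tested, and for CDH3, SNAI2 and ZEB2 in A549 and for CDH1 and ST14 in SUM159 the fitted value rests on untreated libraries with 3 or fewer counts. The 6 keratins lie above 0 in each A549 row and all carry dots in 3 of these rows, while the 5 tested keratins are blue in SUM159.

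Before treatment the lines stood far apart in most of these genes, with 13 of 36 higher and 21 lower in SUM159 than in A549, against 41.9% and 36.8% of 17279 genes. By at least 2-fold, 11 were higher and 20 lower, against 24.4% and 24.3%. Of the 10 tight junction genes 9 were lower in SUM159 and none higher, and of 6 desmosome genes 5 were lower and none higher. The 6 transition factors and both mesenchymal genes were higher, and the keratins split into 3 higher and 3 lower. CLDN2, CLDN4, CLDN7, OCLN, TJP3, CGN, MARVELD2, DSC2 and KRT19 had 11 or fewer counts in each untreated SUM159 library and passed the filter through A549. SNAI1, SNAI2 and ZEB2 had 6 or fewer in each untreated A549 library and passed through other libraries. Such genes could hardly be called in the opposite direction, so the counts by role are descriptions and no measure of direction. TJP1 and DSG2 were the tested genes that missed the threshold, at -0.13 ± 0.06 and -0.10 ± 0.07 on the log2 scale, with adjusted p = 0.0514 and 0.196 in edgeR. They passed it without the first untreated A549 library (adjusted p = 0.0133 and 0.00370), with TMM scaling (adjusted p = 0.00234 and 0.0169) and in DESeq2 (adjusted p = 0.00493 and 0.0320). CDH1 was counted 3 and 0 times in untreated SUM159 and 2354 and 2277 in untreated A549, a ratio of 1691-fold (exact 95% interval 578 to 8203) from summed counts. DSC2 was at 0 counts in both untreated SUM159 libraries and was at least 125-fold higher in untreated A549, taking the floor of 3 counts per library. As levels per length in untreated A549, KRT18 stood highest at 821 CPM per kilobase, followed by CLDN2 at 393 and KRT8 at 309, with CDH1 at 25.7. In untreated SUM159 the highest were VIM at 804, KRT7 at 469 and FN1 at 183 CPM per kilobase.

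The keratins rose together in treated A549 and fell in SUM159. Type I and type II keratins pair into the intermediate filaments of epithelial cells, and KRT7, KRT8, KRT18 and KRT19 are those of simple epithelia. In A549 4 of the 6 were higher with palbociclib and 6 of 6 with indisulam, with the combination and with PF-06873600. The shares of all genes that were higher were 8.3%, 28%, 35.1% and 28.5% in that order. In SUM159, 5 were tested with PF-06873600 and 5 were lower, 2 of them by at least 2-fold. Of all genes there, 35.6% were lower and 7.51% were lower by at least 2-fold. The median log2 fold change of the tested keratins was 0.58 with palbociclib, 0.87 with indisulam, 1.62 with the combination, 1.41 with PF-06873600 in A549 and -0.86 with it in SUM159.

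KRT80, a type II keratin expressed in many epithelia (ENSG00000167767, chromosome 12, 52168996 to 52192014, minus strand, GRCh38), showed the largest rise of the 6 in A549. It was counted at 37.9 and 34.4 CPM untreated, 76.8 and 81.2 with palbociclib, 160.3 and 172 with indisulam, 297 and 311 with the combination and 325 and 339.6 with PF-06873600. All treated libraries lay above the untreated ones, and the groups did not overlap in the order untreated, palbociclib, indisulam, combination. The log2 fold change was 1.13 ± 0.07, adjusted p = 1.60e-07 with palbociclib, 2.2 ± 0.07, adjusted p = 2.02e-11 with indisulam, 3.07 ± 0.07, adjusted p = 9.16e-14 with the combination and 3.20 ± 0.07, adjusted p = 2.30e-13 with PF-06873600. In SUM159 the same gene went the other way, at 239.8 and 217 CPM untreated and 80.6 and 76.5 with PF-06873600 (-1.54 ± 0.06, adjusted p = 1.60e-11). KRT7, a type II keratin of simple epithelia (ENSG00000135480, chromosome 12, 52232520 to 52252186, plus strand), was at 1062 and 901 CPM untreated, 1140.4 and 1168 with palbociclib, 1826 and 1849 with indisulam, 3285 and 3173 with the combination and 2587 and 2604 with PF-06873600. The combination libraries were the highest, and the palbociclib libraries lay just above the untreated pair (0.23 ± 0.07, adjusted p = 0.0282). That call was lost without either palbociclib library or the second untreated one (adjusted p = 0.0818, 0.144 and 0.103), and without either PF-06873600 library, which shares in the estimate of spread (adjusted p = 0.0565 and 0.0576). The changes with indisulam (0.90 ± 0.07, adjusted p = 7.97e-08), the combination (1.72 ± 0.07, adjusted p = 2.35e-11) and PF-06873600 (1.40 ± 0.07, adjusted p = 4.10e-10) were larger. In SUM159 KRT7 was at 1922 and 1833 CPM untreated and 711 and 729 with PF-06873600 (-1.38 ± 0.07, adjusted p = 1.73e-10).

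KRT8 and KRT18 form the filament pair of simple epithelia, and their genes adjoin on chromosome 12. KRT8 was at 2344 and 1908 CPM untreated, 3489.8 and 3587 with palbociclib, 3777 and 3769 with indisulam, 5109 and 4899 with the combination and 5631 and 5680.0 with PF-06873600. The untreated libraries differed from each other by more than those of any treated pair, and every treated library lay above both. KRT8 changed by 0.74 ± 0.08, adjusted p = 1.37e-05 with palbociclib, 0.83 ± 0.08, adjusted p = 6.81e-07 with indisulam, 1.24 ± 0.08, adjusted p = 2.74e-09 with the combination and 1.41 ± 0.08, adjusted p = 1.28e-09 with PF-06873600. KRT18 was at 2652 and 2389 CPM untreated, 3948 and 3959 with palbociclib, 3933 and 3911 with indisulam, 4601 and 4380.4 with the combination and 5442 and 5467 with PF-06873600. Palbociclib and indisulam brought KRT18 to nearly the same level. Against untreated cells, PF-06873600 at 7 days gave the highest libraries (1.11 ± 0.06, adjusted p = 8.48e-10). The combination at 10 days came next (0.83 ± 0.06, adjusted p = 1.01e-08). In SUM159, KRT8 was at 433 and 401 CPM untreated and 259.8 and 272 with PF-06873600 (-0.65 ± 0.06, adjusted p = 1.47e-07). KRT18 there was at 321 and 297 CPM untreated and 166 and 173 with PF-06873600 (-0.86 ± 0.06, adjusted p = 4.16e-09). The exons of the pair overlap on opposite strands, both genes have many processed pseudogenes, and the use of strand in counting is not given in the sources used here, so a part of their counts could be split or shared. KRT7 overlaps an antisense gene as well.

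KRT19, the type I keratin that lacks most of the tail domain, was at 255 and 202 CPM untreated, 257 and 255 with palbociclib, 345 and 357 with indisulam, 676 and 647 with the combination and 594 and 593 with PF-06873600. The palbociclib libraries lay at the level of the higher untreated one (0.16 ± 0.08, adjusted p = 0.215). The call was made without the first untreated library (adjusted p = 2.07e-04), and the combination raised it by 1.53 ± 0.08, adjusted p = 6.40e-10. PF-06873600 raised it by 1.37 ± 0.08, adjusted p = 3.85e-09 and indisulam by 0.62 ± 0.08, adjusted p = 2.78e-05. In SUM159 it was near the floor, at 0.422 and 0.438 CPM untreated and 0.351 and 0.567 with PF-06873600, and was not tested. KRT81, a keratin of hair, had the lowest level per length (2.17 CPM per kilobase in untreated A549), at 5.23 and 3.13 CPM untreated, 5.94 and 5.92 with palbociclib, 12 and 10.8 with indisulam, 35.5 and 32.2 with the combination and 12.6 and 12.9 with PF-06873600. It rose by 1.45 ± 0.18, adjusted p = 1.27e-05 with indisulam, 3.01 ± 0.16, adjusted p = 4.15e-10 with the combination and 1.61 ± 0.17, adjusted p = 2.08e-06 with PF-06873600. With palbociclib the call was made without the first untreated library (adjusted p = 0.00392). KRT86, whose coding sequence is nearly identical, was at 5.10 and 4.73 CPM without treatment, 11.9 and 10.3 with indisulam and 6.59 and 5.73 with the combination, and reads shared by the pair could be assigned to either. In SUM159, KRT81 was at 9.17 and 8.20 CPM untreated and 5.14 and 6.81 with PF-06873600 (-0.53 ± 0.16, adjusted p = 0.00828), a call lost without the first PF-06873600 library (adjusted p = 0.119).

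**Figure D2:**
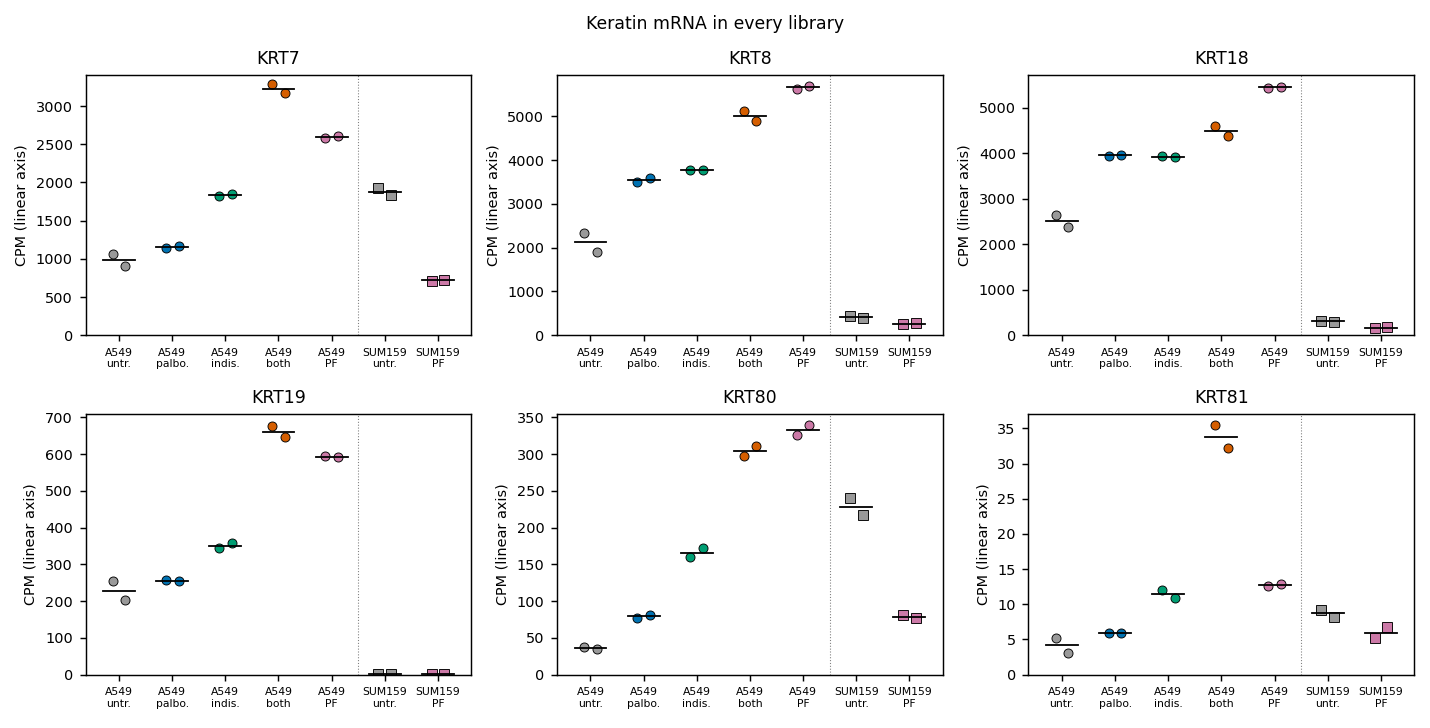
Level of the 6 keratins in CPM (linear axes from 0) in each of the 14 libraries, with circles for A549, squares for SUM159 and bars for the mean of 2 libraries. The treated A549 libraries of KRT80 rise from 76.8 to 339.6 CPM against 34.4 and 37.9 untreated, while in SUM159 the PF-06873600 libraries of KRT7 and KRT80 lie below the untreated pair.

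Transcripts of the surface adhesion molecules changed by unlike amounts in treated A549, with CDH2 higher in each of the 4 treated groups and CDH1 past the threshold in 2 of them. CDH1, which encodes E-cadherin, the cadherin of epithelial adherens junctions (ENSG00000039068, chromosome 16, 68737292 to 68835537, plus strand), was at 160.0 and 152 CPM untreated, 144 and 136 with palbociclib, 172 and 172 with indisulam, 130.1 and 126 with the combination and 93.1 and 98.1 with PF-06873600. PF-06873600 gave the lowest libraries (-0.70 ± 0.06, adjusted p = 1.56e-07), the combination was lower than untreated cells by less (-0.29 ± 0.06, adjusted p = 6.06e-04). The single drugs did not pass the threshold (-0.15 ± 0.06, adjusted p = 0.0903 for palbociclib and 0.14 ± 0.06, adjusted p = 0.0567 for indisulam). The palbociclib call was made without the second untreated library (adjusted p = 0.0280) and the indisulam call without the first (adjusted p = 0.0162). A549 retained more than 90 CPM of CDH1 in every library. In SUM159, CDH1 was counted 3 and 0 times in the untreated libraries and 14 and 14 times with PF-06873600, a ratio of 7.94-fold (exact 95% interval 2.45 to 40.8) with edgeR adjusted p = 0.00157, at a level under 1 CPM.

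CDH2 encodes N-cadherin, the cadherin of neural and mesenchymal cells, and rose in 4 of 4 treated A549 groups. Its libraries were at 42.0 and 41.9 CPM untreated, 58.5 and 53.9 with palbociclib, 66.6 and 71.2 with indisulam, 90.3 and 96.5 with the combination and 56.9 and 55.4 with PF-06873600. No treated library overlapped the untreated pair, and the order from untreated through palbociclib, indisulam and the combination held without overlap. The change was 0.42 ± 0.07, adjusted p = 0.00122 with palbociclib, 0.72 ± 0.07, adjusted p = 1.78e-06 with indisulam, 1.16 ± 0.07, adjusted p = 2.59e-09 with the combination and 0.42 ± 0.07, adjusted p = 1.92e-04 with PF-06873600. SUM159 had more CDH2 than any A549 library, at 182 and 178 CPM untreated and 198 and 193 with PF-06873600. The change there missed the threshold (0.12 ± 0.05, adjusted p = 0.0617), a call that was made without the first untreated SUM159 library (adjusted p = 0.0160) and with TMM scaling (adjusted p = 0.0422). EPCAM, an adhesion molecule of simple epithelia, was at 18.3 and 20.6 CPM untreated, 10.9 and 11.2 with palbociclib, 24.4 and 26.4 with indisulam, 15.1 and 13.9 with the combination and 8.35 and 7.73 with PF-06873600. It was lower with palbociclib (-0.81 ± 0.11, adjusted p = 1.60e-04), the combination (-0.42 ± 0.10, adjusted p = 0.00254) and PF-06873600 (-1.28 ± 0.11, adjusted p = 3.05e-07) and higher with indisulam alone (0.39 ± 0.10, adjusted p = 0.00533). The indisulam call was lost without the second indisulam library (adjusted p = 0.0546) and in DESeq2 (adjusted p = 0.123). In SUM159 EPCAM was under 1 CPM, at 0.844 and 0.438 CPM untreated and 0.643 and 0.284 with PF-06873600 (-0.53 ± 0.50, adjusted p = 0.352).

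CDH3, which encodes P-cadherin of basal epithelial cells, was nearly absent from untreated A549, with 1 and 0 counts, and had 1 and 1 counts with palbociclib, 11 and 6 with indisulam, 69 and 69 with the combination and 14 and 34 with PF-06873600. Summed counts gave a ratio to untreated cells of 138-fold (exact 95% interval 24.4 to 5503) for the combination and 48.8-fold (exact 95% interval 8.35 to 1967) for PF-06873600, where the interval covers counting error only. The indisulam call (adjusted p = 0.00573) was lost without the first indisulam library (adjusted p = 0.0516), and CDH3 failed the filter in a model of these groups alone. In SUM159 CDH3 went from 0.784 and 0.626 CPM to 6.66 and 6.43 with PF-06873600 (3.20 ± 0.25, adjusted p = 1.82e-08). The highest level in either line was 6.66 CPM, and an antisense gene overlaps its exons.

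**Figure D3:**
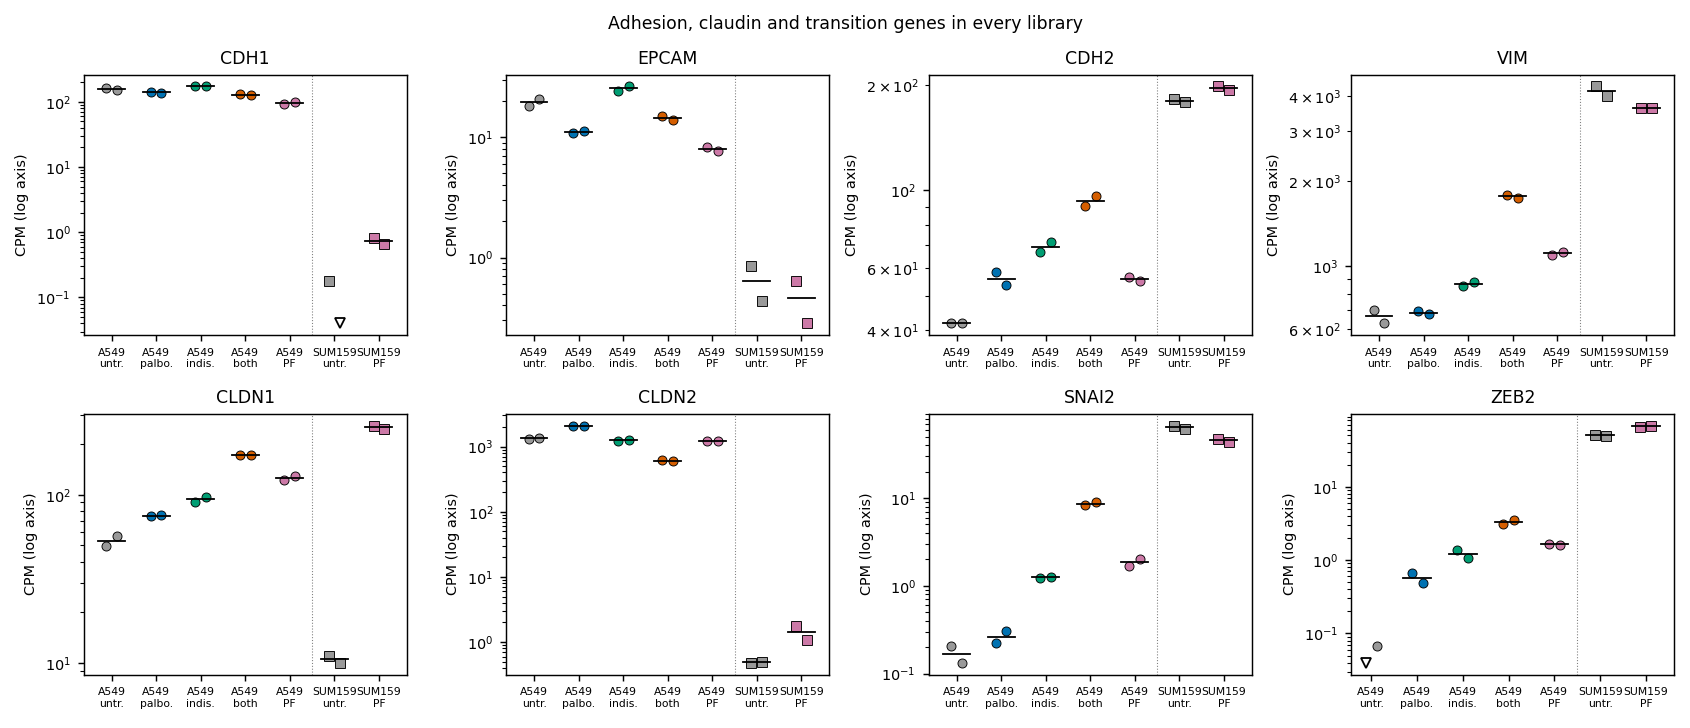
Level of 8 genes in CPM (log axes) in each library, with circles for A549, squares for SUM159, bars for the mean of 2 libraries with counts, and open triangles at the lower edge for libraries with 0 counts. In A549 CDH2, VIM, CLDN1, SNAI2 and ZEB2 are highest with the combination, where CLDN2 is lowest, and in SUM159 CLDN1 rises from 11 and 10.0 to 258 and 247 CPM.

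The tight junction genes moved in both directions. With the combination 4 of 10 were higher and 5 lower, against 35.1% and 30% of all genes. With PF-06873600 in A549 2 were higher and 6 lower, against 28.5% and 27.8%. In SUM159, 6 were tested, of which 5 were higher and 1 was lower with PF-06873600, against 38.1% and 35.6% of all genes. Of the 5, CLDN2, CLDN7 and OCLN passed the filter only through the treated libraries, so that count is no measure of direction. CLDN1, a claudin that tightens the barrier (ENSG00000163347, chromosome 3, 190305707 to 190322446, minus strand), was at 49.6 and 56.8 CPM untreated, 74.6 and 75.6 with palbociclib, 90.7 and 96.8 with indisulam, 173 and 173 with the combination and 122 and 129 with PF-06873600. The treated libraries lay above the untreated pair in each of the 4 groups, and the combination gave the highest (1.70 ± 0.07, adjusted p = 3.54e-11), followed by PF-06873600 (1.24 ± 0.07, adjusted p = 2.34e-09), indisulam (0.82 ± 0.07, adjusted p = 4.65e-07) and palbociclib (0.50 ± 0.07, adjusted p = 3.10e-04). In SUM159 CLDN1 went from 11 and 10.0 CPM to 258 and 247 (4.59 ± 0.07, adjusted p = 1.29e-15), and its level per length rose to 69.6 CPM per kilobase, next below KRT7 at 180.0. Among the 30 genes tested in SUM159, ST14, with few counts, was the other gene with a log2 fold change above 4.

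CLDN2, a claudin that forms a channel for cations and water (ENSG00000165376, chromosome X, 106900164 to 106930861, plus strand), had the highest level per length of the tight junction genes in untreated A549 (393 CPM per kilobase), at 1321 and 1363 CPM untreated, 2088 and 2037 with palbociclib, 1227 and 1249 with indisulam, 613 and 606 with the combination and 1210.2 and 1228 with PF-06873600. Palbociclib raised it (0.62 ± 0.05, adjusted p = 1.69e-06). With the combination it was less abundant in both libraries than in any other A549 library (-1.14 ± 0.05, adjusted p = 7.68e-11). Indisulam alone gave -0.12 ± 0.05, adjusted p = 0.0701. This was past the threshold with TMM scaling (adjusted p = 0.00778), in DESeq2 (adjusted p = 0.00436) or without the first untreated library (adjusted p = 0.0236). PF-06873600 gave -0.14 ± 0.05, adjusted p = 0.0280, lost without either of its libraries (adjusted p = 0.153 and 0.103) or the second untreated one (adjusted p = 0.0501) and in DESeq2 (adjusted p = 0.0737). SUM159 had 0.482 and 0.501 CPM untreated and 1.75 and 1.09 with PF-06873600, a level near the floor (1.49 ± 0.39, adjusted p = 0.00328), and the call was lost without the first PF-06873600 library (adjusted p = 0.0815).

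F11R, the junctional adhesion molecule A, rose in each treated group of both lines. It was at 27.6 and 27.9 CPM untreated, 36.7 and 36.8 with palbociclib, 37.6 and 34.8 with indisulam, 58.2 and 64.1 with the combination and 43.0 and 37.6 with PF-06873600. The 4 groups changed by 0.40 ± 0.09, 0.38 ± 0.09, 1.14 ± 0.09 and 0.53 ± 0.09 in that order, with edgeR adjusted p = 0.00649, 0.00294, 2.51e-08 and 1.25e-04. In SUM159 it was at 1.39 and 1.57 CPM untreated and 11 and 11.6 with PF-06873600 (2.93 ± 0.18, adjusted p = 1.73e-09). CLDN4, another sealing claudin, was at 5.37 and 5.13 CPM untreated, 4.75 and 5.49 with palbociclib, 4.70 and 4.89 with indisulam, 15.7 and 13.3 with the combination and 4.59 and 4.76 with PF-06873600. Against untreated cells it passed the threshold with the combination (1.46 ± 0.14, adjusted p = 3.99e-07). The combination libraries also exceeded each single drug (1.49 ± 0.14, adjusted p = 4.26e-07 against palbociclib and 1.60 ± 0.14, adjusted p = 5.19e-07 against indisulam). TJP1, the scaffold ZO-1, was at 188 and 202 CPM untreated, 194 and 182 with palbociclib, 252 and 254 with indisulam, 293 and 319 with the combination and 202 and 208 with PF-06873600. It was higher with indisulam (0.38 ± 0.06, adjusted p = 2.03e-04) and the combination (0.65 ± 0.06, adjusted p = 3.47e-07). In SUM159 it was at 179 and 177 CPM untreated and 134 and 125 with PF-06873600 (-0.46 ± 0.06, adjusted p = 3.02e-06).

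TJP3, the scaffold ZO-3, fell in A549. It was at 26.2 and 17.9 CPM untreated, 18.8 and 20.0 with palbociclib, 16.1 and 16.0 with indisulam, 8.01 and 6.63 with the combination and 5.28 and 4.39 with PF-06873600. The untreated libraries were apart from each other, yet both lay above those of the combination (-1.59 ± 0.17, adjusted p = 1.14e-06) and PF-06873600 (-2.2 ± 0.18, adjusted p = 1.33e-07). Palbociclib passed the threshold without the second untreated library (adjusted p = 0.0139). The smaller change with indisulam (-0.46 ± 0.15, adjusted p = 0.0232) was lost without either indisulam library or the first untreated one (adjusted p = 0.0850, 0.0911 and 0.340). MARVELD2, tricellulin of the corners where 3 cells meet, was at 25.0 and 28.0 CPM untreated, 23.4 and 21.9 with palbociclib, 17.8 and 21.7 with indisulam, 14.3 and 13.7 with the combination and 11.9 and 12.4 with PF-06873600. It was lower with indisulam (-0.42 ± 0.11, adjusted p = 0.00498), the combination (-0.92 ± 0.11, adjusted p = 4.08e-06) and PF-06873600 (-1.12 ± 0.11, adjusted p = 1.01e-06), the first of these lost without the first indisulam library (adjusted p = 0.0777). OCLN, occludin, was at 16.0 and 19.8 CPM untreated, 18.6 and 20.3 with palbociclib, 14.2 and 16.1 with indisulam, 14.5 and 12.4 with the combination and 7.96 and 9.46 with PF-06873600. It fell with PF-06873600 (-1.03 ± 0.14, adjusted p = 2.39e-05) and by less with the combination (-0.42 ± 0.13, adjusted p = 0.0134), a call that was lost without the second combination library or the second untreated one (adjusted p = 0.144 and 0.131).

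CLDN7, a claudin that binds EPCAM, and CGN, cingulin of the junction plaque, were scarce. CLDN7 stayed between 0.742 and 5.64 CPM across A549 libraries and was lower in 4 of 4 treated groups, with log2 fold changes of -1.20, -0.96, -1.26 and -2.66 for palbociclib, indisulam, the combination and PF-06873600. CGN ranged from 2.08 to 7.21 CPM and was lower with PF-06873600 (-1.04 ± 0.27, adjusted p = 0.00478). In SUM159 OCLN was at 0.422 and 0.689 CPM untreated and 1.70 and 1.47 with PF-06873600 (1.49 ± 0.36, adjusted p = 0.00158). CLDN7 was also higher with PF-06873600 (1.54 ± 0.41, adjusted p = 0.00329), both at levels under 2 CPM. The CLDN7 call was lost without the second PF-06873600 library (adjusted p = 0.0684) and in DESeq2 (adjusted p = 0.0542). CLDN4, TJP3, CGN and MARVELD2 stayed at or below 0.663 CPM in the SUM159 libraries. Exons of CLDN7, CLDN2 and TJP3 overlap genes on the other strand.

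Desmosomal cadherins and desmoplakin rose with indisulam and with the combination, and the plaque protein plakoglobin fell. DSP, desmoplakin, which links desmosomes to keratin filaments, was at 97.3 and 92.3 CPM untreated, 93.1 and 86.5 with palbociclib, 137 and 135 with indisulam, 224 and 219 with the combination and 102 and 101 with PF-06873600. Its combination libraries were far above the rest (1.22 ± 0.06, adjusted p = 1.80e-10), the indisulam libraries came next (0.52 ± 0.06, adjusted p = 6.07e-06), and the change with PF-06873600 missed the threshold (0.10 ± 0.06, adjusted p = 0.181). DSG2, a desmosomal cadherin, was at 198 and 235 CPM untreated, 214 and 211 with palbociclib, 350.5 and 368 with indisulam, 554 and 589 with the combination and 328 and 347 with PF-06873600. It rose by 0.73 ± 0.07, adjusted p = 1.90e-06 with indisulam, 1.40 ± 0.07, adjusted p = 5.16e-10 with the combination and 0.64 ± 0.07, adjusted p = 3.86e-06 with PF-06873600. DSC2, its partner cadherin, was at 23.0 and 23.3 CPM untreated, 16.9 and 21.4 with palbociclib, 34.8 and 37.0 with indisulam, 54.8 and 62.2 with the combination and 29.2 and 25.4 with PF-06873600. Its indisulam and combination libraries were again the highest, with 0.63 ± 0.11, adjusted p = 3.11e-04 for indisulam and 1.34 ± 0.11, adjusted p = 4.62e-08 for the combination, while PF-06873600 gave 0.24 ± 0.11, adjusted p = 0.0895. None of the 6 desmosome genes passed the threshold with palbociclib alone, where 8.3% of all genes were higher and 7.4% lower.

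JUP, plakoglobin, was at 688 and 531 CPM untreated, 594 and 574 with palbociclib, 455 and 450.4 with indisulam, 478 and 473 with the combination and 374 and 378 with PF-06873600. The untreated libraries were 688 and 531 CPM, a wider gap than in any treated pair. Both were above the indisulam (-0.43 ± 0.09, adjusted p = 0.00103), combination (-0.36 ± 0.09, adjusted p = 0.00217) and PF-06873600 (-0.70 ± 0.09, adjusted p = 8.86e-06) libraries. With palbociclib the call was made when the second untreated library was left out (adjusted p = 0.00215). In SUM159 JUP rose from 102 and 93.8 CPM to 251 and 253 (1.36 ± 0.06, adjusted p = 2.84e-11) and DSP from 1.09 and 1.06 to 4.09 and 3.36 (1.78 ± 0.26, adjusted p = 2.08e-05). PKP3 fell from 22.5 and 19.2 to 8.71 and 9.88 (-1.16 ± 0.12, adjusted p = 3.92e-07). The plakophilins are plaque proteins of the desmosome, and PKP2 stayed within 19.4 to 28.1 CPM in A549. PKP3 was at 47.6 and 34.2 CPM untreated, 34.6 and 35.4 with palbociclib, 41.1 and 38.0 with indisulam, 32.9 and 32.8 with the combination and 30.7 and 32.9 with PF-06873600. Their calls with PF-06873600 (-0.36 ± 0.11, adjusted p = 0.0122 and -0.36 ± 0.12, adjusted p = 0.0186), that of PKP2 with indisulam (-0.38 ± 0.11, adjusted p = 0.0104) and that of PKP3 with the combination (-0.32 ± 0.12, adjusted p = 0.0299) were lost when 1 library was left out. With PF-06873600 the edgeR adjusted p of PKP2 became 0.0908 without its first library and 0.112 without the second untreated one. That of PKP3 became 0.114 and 0.0503 without either PF-06873600 library and 0.356 without the first untreated one. The PKP2 call with indisulam became 0.0640 without the first indisulam library and 0.0885 without the second untreated one. The PKP3 call with the combination became 0.102 and 0.113 without either combination library and 0.581 without the first untreated one. In SUM159 PKP2 was higher (0.68 ± 0.10, adjusted p = 2.01e-05). DSG2, at 210.2 and 193 CPM untreated and 177 and 179 with PF-06873600, was lower (-0.18 ± 0.06, adjusted p = 0.00926), a call lost without either PF-06873600 library (adjusted p = 0.0989 and 0.0721). Antisense genes overlap DSP and DSG2.

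VIM, which encodes vimentin, the intermediate filament protein of mesenchymal cells (ENSG00000026025, chromosome 10, 17228241 to 17237593, plus strand), was at 701 and 628 CPM untreated, 695 and 677 with palbociclib, 853 and 882 with indisulam, 1792 and 1743 with the combination and 1093 and 1127 with PF-06873600. The palbociclib libraries fell inside the range of the untreated pair (0.05 ± 0.06, adjusted p = 0.671). The combination libraries were the highest (1.41 ± 0.06, adjusted p = 4.68e-11), followed by PF-06873600 (0.74 ± 0.06, adjusted p = 9.03e-08) and indisulam (0.38 ± 0.06, adjusted p = 1.13e-04). SUM159 contained more VIM than any A549 library, at 4318 and 4006 CPM untreated and 3609 and 3610.0 with PF-06873600. The small fall there (-0.21 ± 0.08, adjusted p = 0.0347) was lost without either PF-06873600 library (adjusted p = 0.343 and 0.354). FN1, fibronectin of the extracellular matrix (ENSG00000115414, chromosome 2, 215360440 to 215436073, minus strand), was at 1707 and 1544 CPM untreated, 1669 and 1501 with palbociclib, 2247 and 2080.5 with indisulam, 1793 and 1787 with the combination and 1825 and 1928 with PF-06873600. It rose with indisulam alone (0.41 ± 0.07, adjusted p = 1.89e-04), and the combination gave 0.14 ± 0.07, adjusted p = 0.0840, which passed the threshold without the first untreated library (adjusted p = 0.00626) and without the filter on low counts (adjusted p = 0.0224). The rise with PF-06873600 (0.21 ± 0.07, adjusted p = 0.0170) was lost without the second PF-06873600 library or the second untreated one (adjusted p = 0.146 and 0.0771). In SUM159 FN1 was at 2764 and 3527 CPM untreated and 13679.8 and 13795 with PF-06873600 (2.13 ± 0.11, adjusted p = 3.47e-10). With PF-06873600 in SUM159 FN1 stood at 798 CPM per kilobase and VIM at 697. VIM overlaps the antisense gene VIM-AS1.

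Markers of fibroblasts were measured beside these genes. The 7 markers summed to 2.11 and 2.2 CPM in untreated A549 (1 of 7 above the floor in both libraries), 4.23 and 4.52 with palbociclib, 21.7 and 20.6 with indisulam, 84.7 and 82.9 with the combination (3 of 7) and 10.6 and 8.90 with PF-06873600. COL1A1 made up most of each sum in A549, at 73.7 and 73.5 CPM with the combination, and COL1A2 was at or near 0 in A549 with at most 0.185 CPM. In SUM159 the list summed to 1785 and 1879 CPM without treatment and 4661 and 4849 with PF-06873600, with 7 of 7 above the floor. The 4 endothelial markers summed to 11.2 and 11.8 CPM and then 27.7 and 29.5 in SUM159, nearly all of it PECAM1, with VWF and CDH5 under 1 CPM. Of leukocyte markers, PTPRC was at 9.35 and 9.90 CPM untreated and 20.3 and 17.9 with PF-06873600 in SUM159, and CD3E was at 0 in the SUM159 libraries. The part of these transcripts in the changes of VIM, FN1 and the transition factors was not tested.

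Of the 6 transition factors, 4 were higher with the combination and 4 with PF-06873600 in A549, 3 with indisulam and 1 with palbociclib, and none was lower, against 35.1%, 28.5%, 28% and 8.3% of all genes higher. SNAI1, SNAI2 and ZEB2 had so few untreated counts that they passed the filter only through treated libraries and could hardly be called lower, so ZEB1 and the TWIST genes are the ones tested without that limit. SNAI2, the repressor SLUG, was counted 3 and 2 times without treatment, 3 and 5 with palbociclib, 18 and 19 with indisulam, 117 and 140 with the combination and 22 and 33 with PF-06873600. As levels these were 0.204 and 0.133 CPM untreated, 0.223 and 0.305 with palbociclib, 1.24 and 1.26 with indisulam, 8.30 and 9.01 with the combination and 1.68 and 2.04 with PF-06873600. Indisulam, the combination and PF-06873600 stood clear of the untreated libraries, with ratios of summed counts of 7.43-fold (exact 95% interval 2.91 to 24.2), 51.5-fold (exact 95% interval 21.8 to 160.0) and 11.2-fold (exact 95% interval 4.51 to 35.8), and edgeR adjusted p = 1.50e-04, 7.18e-10 and 6.40e-06. Palbociclib gave a ratio of 1.59-fold (exact 95% interval 0.459 to 6.18), which includes no change. ZEB2, a zinc finger repressor of E-cadherin, had 0 and 1 counts untreated, 9 and 8 with palbociclib, 20 and 16 with indisulam, 44 and 55 with the combination and 22 and 26 with PF-06873600. Its levels were 0 and 0.0667 CPM untreated, 0.668 and 0.488 with palbociclib, 1.38 and 1.06 with indisulam, 3.12 and 3.54 with the combination and 1.68 and 1.61 with PF-06873600. The ratio of summed counts was 16.9-fold (exact 95% interval 2.65 to 707), 36.1-fold (exact 95% interval 6.08 to 1466), 99.2-fold (exact 95% interval 17.4 to 3959) and 48.8-fold (exact 95% interval 8.35 to 1967) in the order palbociclib, indisulam, combination and PF-06873600. DESeq2 did not call the palbociclib difference (adjusted p = 0.0623), and ZEB2 failed the filter in a model of these groups alone.

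ZEB1, the related repressor, was the transition factor with the highest level in A549 per length, 3.85 CPM per kilobase in untreated cells. It was at 30.9 and 35.7 CPM untreated, 36.4 and 36.2 with palbociclib, 43.7 and 49.3 with indisulam, 52.0 and 56.2 with the combination and 41.6 and 43.6 with PF-06873600. It rose with indisulam (0.48 ± 0.09, adjusted p = 4.86e-04), the combination (0.70 ± 0.09, adjusted p = 5.95e-06) and PF-06873600 (0.36 ± 0.09, adjusted p = 0.00346), and palbociclib gave 0.12 ± 0.09, adjusted p = 0.410. SNAI1, the repressor SNAIL, was at 0.408 and 0.200 CPM untreated, 0.445 and 0.488 with palbociclib, 0.484 and 0.859 with indisulam, 1.28 and 1.29 with the combination and 1.15 and 1.55 with PF-06873600, or 25 or fewer counts in each library. The combination (2.05 ± 0.46, adjusted p = 0.00123) and PF-06873600 (2.14 ± 0.45, adjusted p = 0.00104) passed the threshold. TWIST1 and TWIST2 passed it against untreated cells in none of the 4 treated A549 groups. TWIST1 was at 2.18 and 2.2 CPM untreated, 1.48 and 1.40 with palbociclib, 2.56 and 2.18 with indisulam, 1.91 and 2.83 with the combination and 1.76 and 1.67 with PF-06873600. TWIST2 was at 4.28 and 4.07 CPM untreated, 3.64 and 3.97 with palbociclib, 6.15 and 4.82 with indisulam, 3.69 and 3.67 with the combination and 5.05 and 4.2 with PF-06873600. Both TWIST1 libraries lay below the untreated pair with palbociclib (-0.60 ± 0.27, adjusted p = 0.164) and PF-06873600 (-0.35 ± 0.27, adjusted p = 0.276), and the largest TWIST2 difference was with indisulam (0.39 ± 0.18, adjusted p = 0.0918). Antisense genes overlap ZEB1 and ZEB2.

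In SUM159 the 6 factors were higher than in A549, and none changed by 2-fold with PF-06873600. SNAI2 was at 66.7 and 61.0 CPM untreated and 47.6 and 43.2 with PF-06873600 (-0.50 ± 0.07, adjusted p = 1.60e-05). ZEB2 was at 51.5 and 49.7 CPM untreated and 64.8 and 67.9 with PF-06873600 (0.39 ± 0.06, adjusted p = 4.39e-05) and ZEB1 at 69.5 and 64.1 CPM untreated and 82.3 and 82.7 with PF-06873600 (0.30 ± 0.06, adjusted p = 3.28e-04). Thus SNAI2 was lower and both ZEB genes were higher. TWIST1 was at 18.8 and 16.9 CPM untreated and 12 and 10.8 with PF-06873600 (-0.65 ± 0.11, adjusted p = 8.11e-05). TWIST2 was at 18 and 17.1 CPM untreated and 15.3 and 17.0 with PF-06873600 (-0.12 ± 0.10, adjusted p = 0.305) and SNAI1 at 7.90 and 6.95 CPM untreated and 7.01 and 6.43 with PF-06873600 (-0.15 ± 0.15, adjusted p = 0.373). Even at their highest in A549, SNAI2 and ZEB2 stayed below every SUM159 library, at 8.30 and 9.01 and 3.12 and 3.54 CPM with the combination.

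The epithelial regulators were for the most part not measurable. ESRP1 and ESRP2, splicing factors of epithelial transcripts, GRHL2, an activator of junction genes, and OVOL1, a repressor of the mesenchymal program, had at most 7 counts in any library, and differences in them were not detectable at this depth. ELF3, an epithelial ETS factor, was at 193 and 182 CPM untreated, 156 and 162 with palbociclib, 224 and 208 with indisulam, 225 and 224 with the combination and 193 and 201 with PF-06873600. It was slightly higher with the combination (0.26 ± 0.06, adjusted p = 0.00134). The palbociclib (-0.24 ± 0.06, adjusted p = 0.0151) and indisulam (0.21 ± 0.06, adjusted p = 0.0119) calls were small. The palbociclib call was lost without either palbociclib library (adjusted p = 0.116 and 0.0543). The indisulam call was lost without the first indisulam library (adjusted p = 0.137), with TMM scaling (adjusted p = 0.101) and in DESeq2 (adjusted p = 0.150). In SUM159 ELF3 had 5 and 2 counts untreated and 18 and 28 with PF-06873600 (2.44 ± 0.47, adjusted p = 2.77e-04). ST14, the membrane protease matriptase, had 1 and 0 and then 14 and 31 counts in SUM159, a ratio of 38.3-fold (exact 95% interval 6.53 to 1545). In A549 ST14 stayed under 2 CPM, and its combination call (1.22 ± 0.45, adjusted p = 0.0285) was lost without the second combination library (adjusted p = 0.275), without either untreated library (adjusted p = 0.0850 and 0.0645) and in DESeq2 (adjusted p = 0.145).

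The combination was also set against each of its single drugs. Against palbociclib, 26 of 36 genes were higher and 5 lower, while 33.5% and 26.9% of all genes were. Against indisulam 20 were higher and 7 lower, while 22% and 23.9% of all genes were. Without the second combination library the lower count against palbociclib became 3. The 6 keratins were higher in both comparisons, 4 of 6 by at least 2-fold against palbociclib and 1 of 6 against indisulam. VIM was higher by 1.36 ± 0.06, adjusted p = 1.00e-10 against palbociclib and 1.03 ± 0.06, adjusted p = 4.71e-09 against indisulam. CLDN2 changed by -1.76 ± 0.05, adjusted p = 1.69e-12 and -1.02 ± 0.05, adjusted p = 8.94e-10. The KRT18 differences were the smallest of the keratins (0.18 ± 0.06, adjusted p = 0.0122 and 0.20 ± 0.06, adjusted p = 0.0118). Both were lost without the first combination library (adjusted p = 0.0962 and 0.0984). The former was also lost without the first palbociclib library (adjusted p = 0.0528) and with TMM scaling (adjusted p = 0.193), and the latter without either indisulam library (adjusted p = 0.0512 and 0.0622). CDH1 was lower than with indisulam (-0.43 ± 0.06, adjusted p = 3.27e-05) and did not pass against palbociclib (-0.13 ± 0.06, adjusted p = 0.0682). There TMM scaling (adjusted p = 0.00518), DESeq2 (adjusted p = 0.0473) and the fits without either untreated library (adjusted p = 0.0258 and 0.0259) called it.

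An interaction term asked whether the combination differed from the sum of the single-drug changes on the log2 scale. It was positive for 14 of 36 genes and negative for 5, against 10.7% and 14.5% of all genes. These counts became 9 and 2 without the second combination library, and the negative count became 3 without the first palbociclib, the first combination or either indisulam library. VIM exceeded the sum by 0.98 ± 0.08, adjusted p = 8.85e-07 (edgeR), with a single-drug change of 0.05 for palbociclib and 0.38 for indisulam. CLDN4 (1.62 ± 0.22, adjusted p = 7.68e-05), DSP (0.78 ± 0.08, adjusted p = 8.95e-06), DSC2 (0.97 ± 0.16, adjusted p = 3.36e-04), DSG2 (0.70 ± 0.10, adjusted p = 1.73e-04), KRT19 (0.75 ± 0.11, adjusted p = 2.24e-04) and KRT7 (0.58 ± 0.09, adjusted p = 3.76e-04) also lay above it. CLDN2 lay below the sum by the most (-1.64 ± 0.07, adjusted p = 2.83e-09), its rise with palbociclib having turned into a fall with both drugs. TJP3 (-0.96 ± 0.23, adjusted p = 0.00711) and KRT18 (-0.45 ± 0.08, adjusted p = 8.05e-04) lay below it as well. The TJP3 call was lost without the second combination library (adjusted p = 0.0568). CDH2 (0.02 ± 0.10, adjusted p = 0.922), EPCAM (0.00 ± 0.12, adjusted p = 1.00) and ZEB1 (0.10 ± 0.12, adjusted p = 0.630) did not depart from the sum by the test. The calls of CDH1, CGN, ELF3, F11R, KRT8, PKP2 and TJP1 were lost without the second combination library, with adjusted p from 0.0626 for ELF3 to 0.185 for F11R, and each without at least 1 other library. That of CLDN1 was lost without the first indisulam library (adjusted p = 0.0517) and that of KRT81 without the first untreated one (adjusted p = 0.0600). Among these, CDH1 gave -0.27 ± 0.08, adjusted p = 0.0249 and F11R 0.36 ± 0.12, adjusted p = 0.0453. The F11R call was also lost with TMM scaling (adjusted p = 0.0557) and in DESeq2 (adjusted p = 0.0966). It was lost without the filter on low counts (adjusted p = 0.0571) and with a replicate block (adjusted p = 0.0555) as well. The CDH1 call was lost in DESeq2 (adjusted p = 0.0951) and that of KRT8 in a model of only the groups compared (adjusted p = 0.0650). None of the 6 transition factors passed this test, and for CDH3, SNAI2 and ZEB2 the untreated counts are too few to place the sum.

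**Figure D4:**
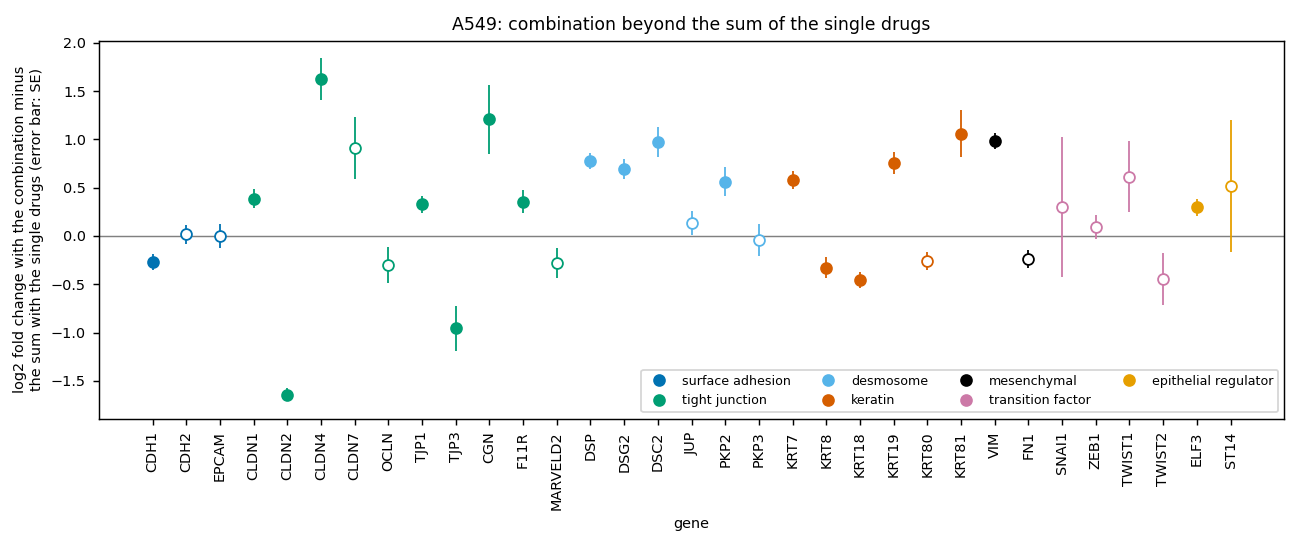
Log2 fold change with the combination minus the sum of those with palbociclib and with indisulam (± SE) for 33 genes of A549, colored by role, with filled points past an adjusted p of 0.05. CDH3, SNAI2 and ZEB2 are left out for their few untreated counts. VIM, the desmosome genes DSP, DSG2 and DSC2, CLDN4 and KRT19 lie above 0, and CLDN2 lies lowest at -1.64.

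PF-06873600 at the same dose and time gave unlike changes in the 2 lines, whose controls are separate. Among 30 genes tested in both, 8 were higher in A549 and lower in SUM159 (DSG2, KRT7, KRT8, KRT18, KRT80, KRT81, VIM and SNAI2). The 8 became 5 without the first PF-06873600 library of SUM159, where DSG2, KRT81 and VIM lost their calls (adjusted p = 0.0989, 0.119 and 0.343), and 6 without the second. A further 6 were lower in A549 and higher in SUM159 (CDH1, CLDN2, CLDN7, OCLN, JUP and PKP2). Of these, CDH1, CLDN2, CLDN7 and OCLN passed the filter in SUM159 only through the treated libraries, so the filter favored a higher call there. The 6 became 4 without the first PF-06873600 library of A549 or without the second untreated one, where CLDN2 and PKP2 lost their A549 calls (adjusted p = 0.153 and 0.0908 without the former). In 6 the call was higher in both (CDH3, CLDN1, F11R, FN1, ZEB1 and ZEB2), and PKP3 was lower in both, a count of 1 that became 0 without either PF-06873600 library of A549 or its first untreated one. Of the genes higher in both, CDH3 and ZEB2 passed the filter in A549 only through treated libraries, as SNAI2 did. The remaining 9 passed in 1 line or in neither. Taken line by line, PF-06873600 calls covered 28.5% of all genes upward and 27.8% downward for A549, and 38.1% and 35.6% for SUM159. The frequency of each joint pattern over all genes was not computed, so whether these pattern counts are unusual was not tested. The test of the difference itself, SUM159 minus A549, was positive for 13 of 36 genes and negative for 13, against 25.8% and 27.2% of all genes. Among the keratins 5 of 6 differed and were negative, from -1.98 ± 0.09, adjusted p = 1.43e-12 for KRT18 to -4.74 ± 0.10, adjusted p = 9.80e-17 for KRT80. KRT19 gave -1.25 ± 0.56, adjusted p = 0.0696, past the threshold without the first untreated A549 library (adjusted p = 0.0176) and in DESeq2 (adjusted p = 0.0495). Of the tight junction genes 6 of 10 were positive and TJP1 was negative (-0.53 ± 0.09, adjusted p = 3.76e-05). Of the 6, CLDN2, CLDN7, OCLN and TJP3 were near the floor in SUM159, so that count is no measure of direction. TJP3 had 1 and 1 counts there untreated and 6 and 4 with PF-06873600, and failed the filter in SUM159 alone. CLDN1 (3.35 ± 0.11, adjusted p = 1.86e-14), F11R (2.40 ± 0.19, adjusted p = 3.65e-09) and FN1 (1.92 ± 0.13, adjusted p = 2.24e-10) rose in both lines and by more in SUM159. JUP (2.06 ± 0.12, adjusted p = 4.07e-11) rose in SUM159 and fell in A549. VIM gave -0.94 ± 0.09, adjusted p = 2.36e-08. CDH2 gave -0.30 ± 0.09, adjusted p = 0.00659, which DESeq2 did not call (adjusted p = 0.0633). The ZEB1 response was not distinguished between the lines (-0.05 ± 0.11, adjusted p = 0.744). CDH1 gave a fitted 3.59 ± 0.57, adjusted p = 2.49e-05 that rests on 3 and 0 untreated SUM159 counts, from a fall at a level above 90 CPM in A549 and a rise below 1 CPM in SUM159.

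**Figure D5:**
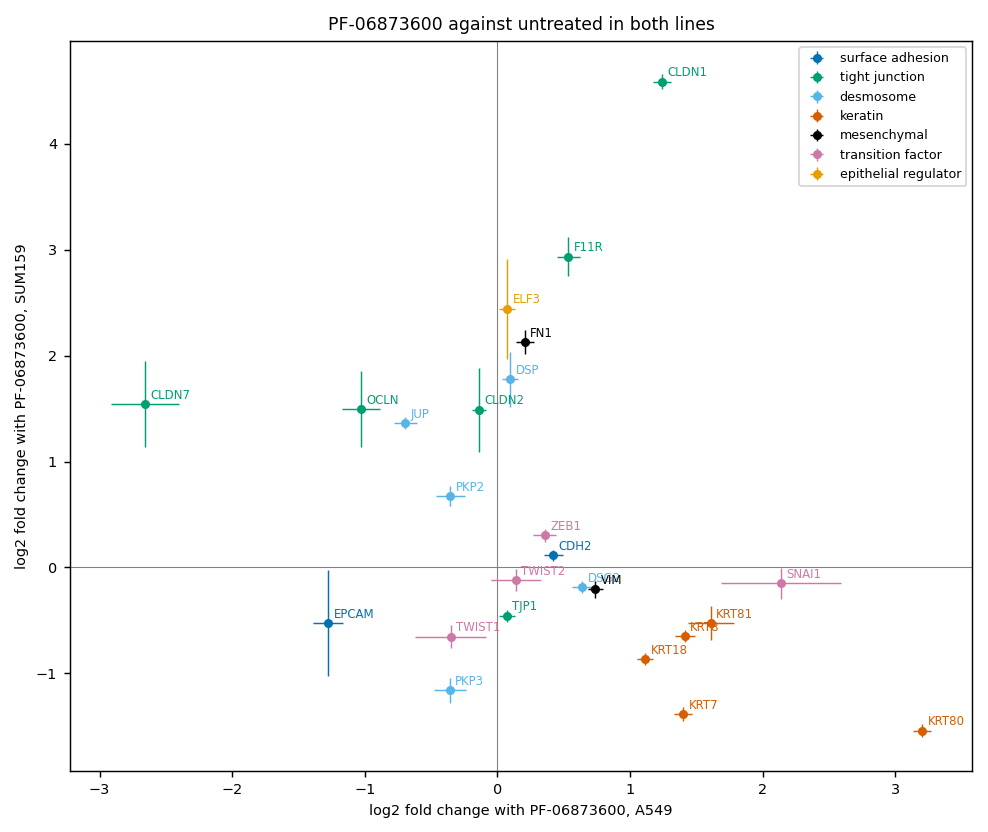
Log2 fold change with PF-06873600 against untreated cells in A549 (horizontal axis) and SUM159 (vertical axis) with SE bars, for 25 of the 30 genes tested in both lines, colored by role. CDH1, CDH3, SNAI2, ZEB2 and ST14 are left out for untreated libraries with few counts, the keratins lie at the lower right, and CLDN1, F11R and FN1 lie in the upper right.

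Other genes of the same structures were described from a list of 96, of which 70 were tested in A549 and 66 in SUM159. With the combination 38 were higher and 14 lower, with PF-06873600 in A549 29 were higher and 15 lower, and in SUM159 32 were higher and 24 lower. As shares of those tested these were 54.3% and 20%, 41.4% and 21.4%, and 48.5% and 36.4%, against 35.1% and 30%, 28.5% and 27.8%, and 38.1% and 35.6% of all genes. The lower share in SUM159 was near that of all genes. These counts and those by list are descriptions. Genes nearly absent from untreated cells, such as CNN1 in A549, passed the filter through other libraries and could hardly be called lower. The list of 23 further mesenchymal genes had 18 tested in A549, of which 14 were higher and 2 lower with the combination. It had 13 higher and 1 lower with PF-06873600. With indisulam it had 15 higher and 1 lower, against 28% and 17.5% of all genes. With palbociclib the list had 7 higher and 1 lower, against 8.3% and 7.4%. Its largest rises with the combination were in the smooth muscle contractile genes CNN1, at 0 and 0 CPM untreated and 1.84 and 1.93 with the combination, and TAGLN, at 4.08 and 2.2 and 238 and 231 CPM (6.22 ± 0.13, adjusted p = 4.59e-14). The lower ones were the transcription factor TCF4 (-0.48 ± 0.12, adjusted p = 0.00331) and S100A4 (-0.28 ± 0.06, adjusted p = 0.00143). In SUM159 the largest rises of that list were in the matrix genes POSTN, from 18.7 and 19.2 to 199.9 and 190.3 CPM, and LOX, from 19.1 and 18.1 to 174 and 168 CPM (3.36 ± 0.06, adjusted p = 8.21e-15 and 3.20 ± 0.07, adjusted p = 1.23e-14). The largest falls were in FOXC2 (-1.17 ± 0.08, adjusted p = 3.61e-09) and AXL (-0.90 ± 0.06, adjusted p = 5.94e-09).

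For the counts that follow, 35.1% of all genes tested in A549 were higher and 30% lower with the combination. The limit of the filter holds here too, since CDH11, KRT6A and PKP1 were nearly absent from untreated A549 and could hardly be called lower. Of 37 further genes of tight and adherens junctions, 30 were tested in A549, with 16 higher and 4 lower under the combination. The largest rises by the fit were in NECTIN4, at 1.09 and 0.733 CPM untreated and 33.7 and 32.8 with the combination, and the cadherin CDH11, at 0.204 and 0.133 and 3.12 and 3.60 CPM. The largest falls were in CLDN10, at 16.0 and 12.1 and 3.55 and 3.48 CPM (-2 ± 0.16, adjusted p = 6.04e-08), and the scaffold PATJ (-0.93 ± 0.09, adjusted p = 2.88e-07). Of 19 further desmosome and keratin genes, 11 were tested, with 7 higher and 1 lower under the combination, led by KRT6A, at 0.0680 and 0.0667 and 4.33 and 2.83 CPM, and PKP1, at 0 and 0.0667 and 0.993 and 0.772 CPM. KRT10 was the one that was lower (-0.56 ± 0.08, adjusted p = 2.61e-05). Of 17 further epithelial regulators, 11 were tested, and 7 were lower and 1 higher under the combination. SPINT1, an inhibitor of matriptase, was the one that rose, from 3.53 and 2.47 to 12.7 and 11.9 CPM (2.03 ± 0.20, adjusted p = 5.26e-07). The largest falls by the fit were in OVOL2, with 12 and 8 counts untreated and 3 and 2 with the combination, and GRHL3, from 33.1 and 30.1 to 11.1 and 12 CPM (-1.45 ± 0.09, adjusted p = 5.70e-09).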

How the data were processed

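The authors sequenced stranded mRNA libraries as single-end reads, and the submitters' processing notes name HISAT2 2.2.1, HTSeq and the GRCh38 build. The annotation release and the use of strand in counting are not given in the sources used here. Each of the 14 deposited files holds raw counts for 60683 gene identifiers and 9 summary lines, which were left out of library sizes and tests. Reads that the counter called ambiguous equaled 3.68 to 4.40% of the counts on genes, and these sums were 13060374 to 21149256 per library. The precision they allow is given by a floor of 3 counts per library, and intervals and floors cover counting error only. Groups were taken from the sample labels.

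Symbols were matched through GENCODE release 44. The 40 genes, the role groups, the 96 other genes and the marker lists were chosen with earlier results of these data known. Counts were tested with edgeR 4.0.16 in R 4.3.3 (filterByExpr, total-count scaling, quasi-likelihood test, Benjamini-Hochberg adjustment over all genes tested, threshold 0.05), with 1 model for A549, 1 for SUM159 and 1 for both lines. SE was taken as the absolute log2 fold change over the root of the F statistic. Where untreated counts were at the floor, the ratio of summed counts per total was given with an exact 95% interval. Alternatives were TMM factors, DESeq2 1.42.0, a replicate block, testing without the low-count filter, models of only the groups compared and leaving out each library in turn. Crossed replicate numbers were tried after the data were seen. PF-06873600 was tested against untreated cells only, since its time differed from that of the other drugs. Rankings of its libraries with those of the other drugs are descriptions. Values in every library are given for genes with adjusted p under 0.05, a 2-fold change and 10 CPM in the higher group against untreated cells, for CDH1, CDH2, VIM, FN1, EPCAM and the 6 transition factors, and other genes by range and counts. Of the other genes, those named had the largest rises and falls. Motifs other than CACCTG were added once results were known, and the test scripts were first tested on simulated data.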

Additional observations from a re-analysis of the deposited data

Results flagged for a closer look

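The log2 fold change with PF-06873600 differed between SUM159 and A549 for 26 of 36 tested genes, by the test of the difference itself in a model of both lines (edgeR's quasi-likelihood test, adjusted p under 0.05, SUM159 minus A549). Over all genes tested 25.8% differed upward and 27.2% downward. Among surface adhesion genes the difference was 3.59 for CDH1 and -0.3 for CDH2. Among tight junction genes it was 3.35 for CLDN1, 1.62 for CLDN2, 4.2 for CLDN7, 2.52 for OCLN, -0.53 for TJP1, 4.15 for TJP3 and 2.4 for F11R. Among desmosome genes it was 1.67 for DSP, -0.82 for DSG2, 2.06 for JUP, 1.03 for PKP2 and -0.8 for PKP3. The keratins gave -2.79 for KRT7, -2.06 for KRT8, -1.98 for KRT18, -4.74 for KRT80 and -2.13 for KRT81. VIM gave -0.94 and FN1 1.92, and the transition factors gave -2.29 for SNAI1, -3.91 for SNAI2 and -4.92 for ZEB2. ELF3 gave 2.37 and ST14 4.24. For CDH1, TJP3 and ST14 in SUM159 and for SNAI2 and ZEB2 in A549 an untreated group had 3 or fewer counts in each library, so the fitted size depends on the prior count. The single difference that an alternative removed was that of CDH2 (adjusted p = 0.0633 in DESeq2).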

How the results depend on the processing

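No called value changed direction under an alternative. Counts of genes called stayed within 1.5 times of the reported ones under TMM factors, DESeq2, no filter on low counts, models of only the groups compared and the replicate block. Leaving out 1 library gave 8 to 11 higher and 2 to 7 lower with palbociclib, 19 to 22 and 2 to 6 with indisulam, 21 to 22 and 7 to 9 with the combination, 16 to 17 and 8 to 11 with PF-06873600 in A549 and 14 to 16 and 8 to 11 in SUM159. Against palbociclib the combination gave 22 to 26 and 3 to 6, against indisulam 18 to 20 and 5 to 8, and beyond the sum of single drugs 9 to 16 and 2 to 7. The lines gave 13 and 21 to 23 before treatment and 13 and 13 to 14 in their response. TMM factors moved the summed mean level to 15559.5 CPM with palbociclib (reported 15067), 15888 with indisulam (16361), 21274 with PF-06873600 in A549 (20561) and 10547 in untreated SUM159 (11081). Of the calls for single genes, DESeq2 removed 17 and added 5, TMM removed 6 and added 5, no filter removed 2 and added 5, models of only the groups compared removed 8, added 3 and left 4 untested by the filter (ZEB2 with palbociclib, CDH3 with indisulam, CDH3 and ST14 between the untreated lines), and leaving out 1 library at a time removed 108 and added 28 over its fits. The replicate numbers did not pair the samples (correlation of deviations -0.194 to 0.138 over the comparisons). The replicate block removed 2 calls, F11R beyond the sum and VIM in SUM159 (adjusted p = 0.0527), and gave 13 higher beyond the sum and 10 lower in SUM159. With the palbociclib numbers crossed, 9 genes were higher and 3 lower, a choice made after seeing the data. Genes with few counts, among them CDH3, ST14 and the epithelial regulators, are limited by depth.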
